A study of Arabidopsis thaliana with 6 samples.

Results

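The genes described here lie beside 3 microRNA genes of the copper response in Arabidopsis thaliana. They are AT5G14550 (beside MIR398B), AT2G47010 and AT2G47020 (beside MIR408) and UNE15 (AT4G13560, beside MIR397B), which makes 4 of the 27052 gene entries measured. They were chosen by name, as genes next to a copper microRNA gene with an SPL7 ChIP-seq peak over them or within 1 kb, and with earlier results of these data known. The peak list holds such a peak for 3 of them, which restates the choice and is no separate support. UNE15 has no listed peak within 1 kb, and its nearest one lies 21655 bp away.

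RNA-seq was made from whole seedlings aged 7 days, kept at 4 °C for 4 days as seeds and then grown at 22 °C under continuous white light. The 4 groups were Col-0 wild type on standard MS (Murashige and Skoog) medium, wild type on MS with 5 µM CuSO4 added, the spl7 mutant on MS, and spl7 on MS with 5 µM CuSO4, with 1 library each. ChIP-seq used a FLAG antibody in seedlings carrying a 35S:FLAG-SPL7 transgene on MS, with spl7 seedlings as the negative control. The 35S promoter drives a gene in most tissues, so these peaks were called with SPL7 made from that promoter. Binding at a peak was not checked in another way. Levels are FPKM (fragments per kilobase of transcript, normalised for library size), and the read number behind each is unknown. No group has a replicate, so differences could not be set against a spread between replicates and no test was run.

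SPL7, an SBP-domain transcription factor, acts when copper is scarce and is known to bind GTAC motifs. It switches on copper uptake genes and the microRNAs miR398, miR408, miR397 and miR857. These microRNAs then lower transcripts of copper proteins that the plant can spare: miR398 those of the copper/zinc superoxide dismutases CSD1 and CSD2 and their chaperone CCS, miR397 and miR857 those of laccases, and miR408 those of laccases and plantacyanin. The transcripts of the microRNA precursors were not analysed here, and the genes next to them are described in their place. In the RefSeq annotation of TAIR10.1, MIR398B lies inside AT5G14550, MIR408 lies inside AT2G47020 and next to AT2G47010, and MIR397B and MIR857 lie side by side next to UNE15. RefSeq gene models can be longer than the entries in the files. The files give no strand and no source used here names a stranded kit, so reads of a precursor transcript and of a gene it overlaps cannot be told apart.

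The SPL7 transcript in wild-type seedlings was at 107 FPKM without and 105 FPKM with added copper, against 20.2 and 20.7 FPKM in the mutant. The markers of green tissue and of roots were above 0 in every library (4 of 4 and 6 of 6 genes). Library medians ran from 29.3 to 30.3 FPKM.

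AT5G14550 encodes a protein of the Core-2/I-branching N-acetylglucosaminyltransferase family. Its entry covers 3081 bases of TAIR10 chromosome 5, from 4691006 to 4694086. In wild-type seedlings its level was 66.4 FPKM on MS and 18.4 FPKM with added copper, and in the mutant 17.1 FPKM on MS and 15.7 FPKM with added copper. Wild type on MS stood apart as the high library, and the other 3 lay close together, within 0.22 on the log2 scale. In whole seedlings, fewer cells that express a gene and less RNA per cell cannot be told apart. The entry shares its interval with AT5G14560, which was listed at 0 in all 4 libraries.

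AT2G47010 has an entry of 2272 bases on chromosome 2, from 19317126 to 19319397. In wild-type seedlings its level was 41.0 FPKM on MS and 7.66 FPKM with added copper, and in the mutant 5.41 FPKM on MS and 5.46 FPKM with added copper. The same library was high, and by a wider margin than for AT5G14550. The other 3 spanned 0.43 on the log2 scale, with wild type with copper at their upper end.

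AT2G47020 encodes a peptide chain release factor, a protein that ends translation. Its entry follows that of AT2G47010, from 19319685 to 19322391, and covers 2707 bases. In wild-type seedlings its level was 31.6 FPKM on MS and 20.9 FPKM with added copper, and in the mutant 22.3 FPKM on MS and 20.2 FPKM with added copper. Wild type on MS was again the highest library, at 1.42 times the level of spl7 on MS, while the other 3 spanned 0.13 on the log2 scale. The microRNA gene that RefSeq places inside it is MIR408, yet its difference was smaller than that of AT2G47010 on the other side.

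UNE15, known as unfertilized embryo sac 15, encodes a late embryogenesis abundant protein. Its entry covers 823 bases of chromosome 4, from 7879561 to 7880383. Its level was 4.49 FPKM in the wild-type library on MS, and it was listed at 0 in the other 3 libraries. No fold is given against a listed 0. In each library between 7081 and 7228 entries were listed at 0, and values as low as that of UNE15 are the least certain. Of the 27052 entries, 59 under 5 FPKM were above 0 in wild type on MS alone, UNE15 among them. The same count was 71 for copper-fed wild type, 85 for the mutant on MS and 63 for the copper-fed mutant.

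**Figure D1:**
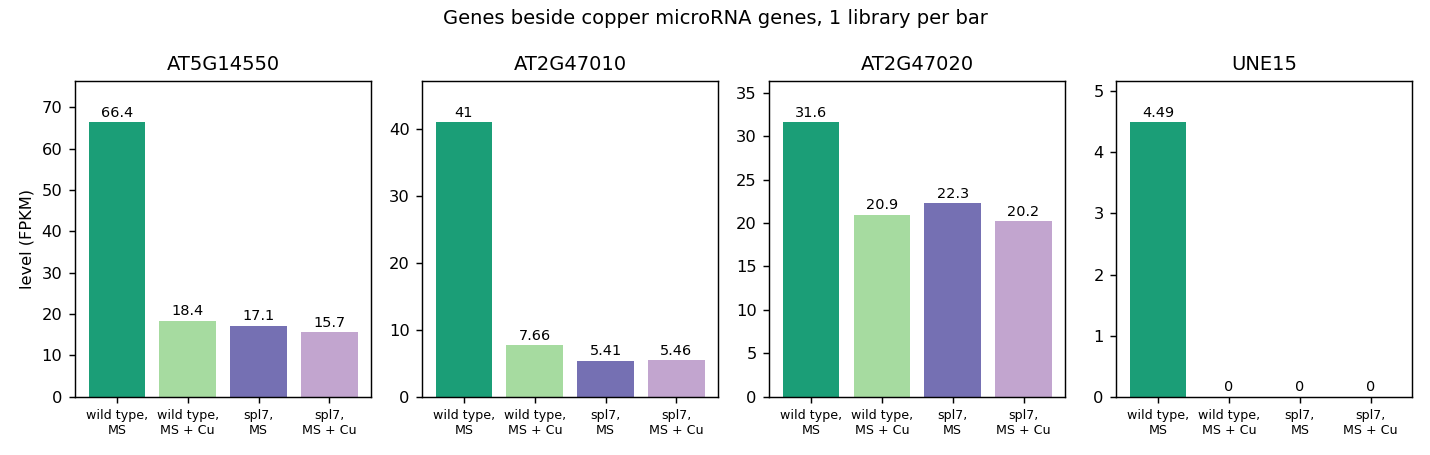
Level in FPKM (vertical axis, from 0, with its own scale for each gene) of the 4 genes in the 4 RNA-seq libraries, 1 library per bar and so no error bars. Wild type on MS is the highest bar for each gene; for AT2G47020 it is 31.6 FPKM beside 20.2 to 22.3 FPKM in the others.

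The order of the genes by level changed with the library. In wild type on MS it was AT5G14550, AT2G47010, AT2G47020 and UNE15. In each other library it was AT2G47020, AT5G14550, AT2G47010 and UNE15, so AT2G47020 moved up to the first place. In wild type on MS, AT5G14550 was above 64.9% of all entries and AT2G47010 above 55.5%. In spl7 on MS these values were 42.8% and 32.8%.

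The peak list holds 3 peaks at these genes. The peak at AT5G14550 (chromosome 5, 4690462 to 4691151) is 690 bp wide and covers the first 146 bases of the entry by position. Its score of 742.91, the authors' own, ranks 189 of 1535 peaks, against a list median of 223.61. A weaker peak (chromosome 5, 4694331 to 4694728; score 266.31, rank 612) lies 245 bp beyond the other end of the entry, on the side where RefSeq places MIR398C. AT5G14560 has the same interval, so which of these genes lies nearer to either peak cannot be told from the entry. The peak at MIR408 (chromosome 2, 19319530 to 19319925; score 283.41, rank 571) begins 133 bp past AT2G47010 and covers the first 241 bases of AT2G47020. All 3 score above the list median, and the next peak on either chromosome lies more than 66 kb from these genes. What the score measures is not stated.

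**Figure D2:**
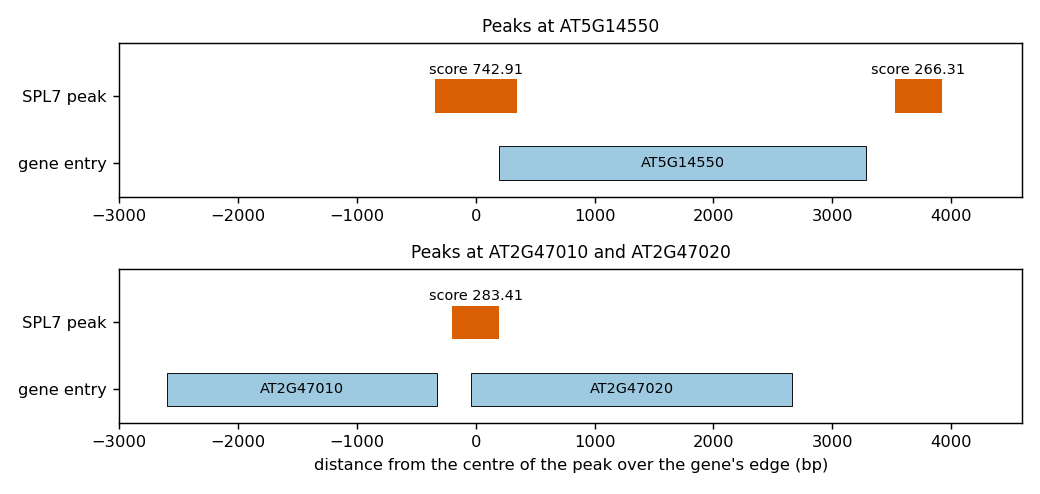
Peaks of FLAG-SPL7 (orange) and gene entries (blue), by distance in bp from the centre of the peak over the gene's edge, with the authors' score above each peak. The upper panel shows the entry of AT5G14550, an interval shared with AT5G14560, and peaks scored 742.91 and 266.31 at its ends. The lower panel shows the peak scored 283.41 between AT2G47010 and AT2G47020.

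The first comparison asked how these genes differed between spl7 and wild type on MS, with no copper added. Counted as lower or higher were genes that reached 5 FPKM in at least 1 of the libraries compared and differed at least 2-fold in FPKM + 1, a scale that understates changes of low genes. AT2G47010 had a log2 ratio of -2.71 and AT5G14550 one of -1.90, and both were counted as lower. AT2G47020, at -0.49, was not counted. UNE15 did not reach 5 FPKM and was not assessed. Thus 2 of the 3 assessed genes were lower, beside 1.05% of 18658 entries. By rank from the lowest ratio, AT2G47010 was entry 79, AT5G14550 entry 102 and AT2G47020 entry 894. Since the genes were chosen with these values known, the counts describe them and support nothing further.

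With added copper, the same contrast of genotypes gave log2 ratios of -0.22 for AT5G14550, -0.42 for AT2G47010 and -0.05 for AT2G47020. None of the 3 was counted, beside 0.814% of 18805 entries counted as lower. AT2G47010, at 7.66 against 5.46 FPKM, was closest to the edge of the middle 95% of entries, which ran from -0.53 to 0.60.

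Added copper was then compared with MS in wild type. AT2G47010 had a log2 ratio of -2.28 and AT5G14550 one of -1.80, so 2 of 3 assessed genes were lower with copper, beside 0.379% of 18742 entries. Their ranks from the lowest ratio were 37 and 42. AT2G47020 stood at -0.57, rank 232, just short of a 1.5-fold ratio and outside the middle 95% of entries (-0.42 to 0.59). This comparison uses the same wild-type library on MS as the first, so a value that is high in that library alone lowers each ratio.

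In spl7, added copper left AT5G14550 at a log2 ratio of -0.12, AT2G47010 at 0.01 and AT2G47020 at -0.13. None was counted, beside 0.524% of 18707 entries counted as lower. The copper ratio of wild type minus that of spl7 was -2.29 for AT2G47010, -1.68 for AT5G14550 and -0.44 for AT2G47020. The first 2 passed a log2 size of 1, beside 1.57% of 18989 entries that did so in the same direction. With 1 library per group this difference could not be tested.

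**Figure D3:**
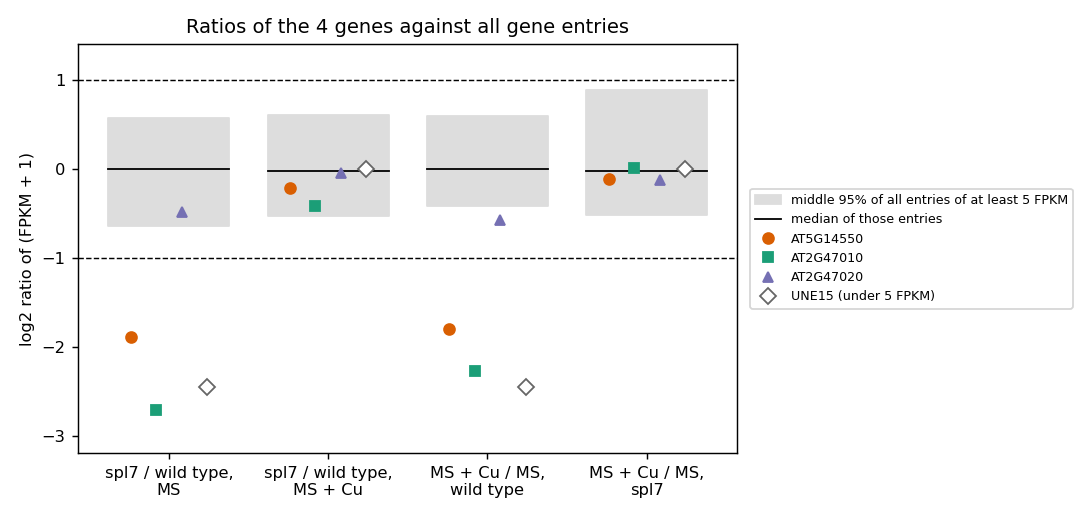
Log2 ratio of FPKM + 1 (vertical axis) of the 4 genes in the 4 comparisons; grey boxes hold the middle 95% of all entries of at least 5 FPKM, black lines are their medians, dashed lines mark 2-fold, and open symbols are under 5 FPKM. AT5G14550 and AT2G47010 lie below -1 in the ratios of spl7 to wild type on MS and of copper to MS in wild type, and inside the grey boxes in the other two.

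Wild type on MS exceeded every other library at least 2-fold in 27 entries (0.142% of 18989), AT2G47010 and AT5G14550 among them. The same count was 32 for copper-fed wild type, 22 for the mutant on MS and 108 for the copper-fed mutant. Listed at 0 in the other libraries were 12 of the 27, at 5.05 to 96.5 FPKM in wild type on MS. The margins of those at low levels are the least certain. By margin AT2G47010 and AT5G14550 ranked 18 and 20 of the 27, with CCH, a copper chaperone, between them at rank 19. Of the 27, 4 had a peak within 1 kb: these 2 genes, CCH and FSD1, the iron superoxide dismutase. Over all entries 6.70% had one. AT2G47010 and AT5G14550 were chosen for having a peak, so the count of 4 cannot be set against that share. A peak alone did not mark entries that were lower in spl7. On MS, 8 of 1550 assessed entries with a peak within 1 kb were lower (0.516%), beside 188 of 17108 without and 1.05% of all assessed entries. Entries with and without a peak were not matched for level: 1550 of 1813 with one reached 5 FPKM, and 17108 of 25239 without.

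Likeness of pattern was measured as the distance between the 4 log2 values of a gene, each centred on its mean, and those of every other entry of at least 5 FPKM. The nearest entry to AT2G47010 was COPT2, a copper transporter of the plasma membrane, at a distance of 0.18. COPT2 was at 153 FPKM without and 28.5 FPKM with added copper in wild-type seedlings, and at 19.8 and 23.5 FPKM in the mutant. AT3G07425 and ATGSTF13 followed at 0.35 each, at 5.05 and 5.13 FPKM in wild type on MS and listed at 0 elsewhere. For AT5G14550 the nearest were AT2G01275 (0.32), CCH (0.34) and AT4G28790 (0.51), with CCH at 2929, 615, 703 and 579 FPKM in the same order of libraries. AT2G01275 shares its interval in the files with another entry. For UNE15 they were AT3G07425, ATGSTF13 and AT5G53820, all above 0 in wild type on MS alone. These distances rest on 4 libraries and describe them.

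**Figure D4:**
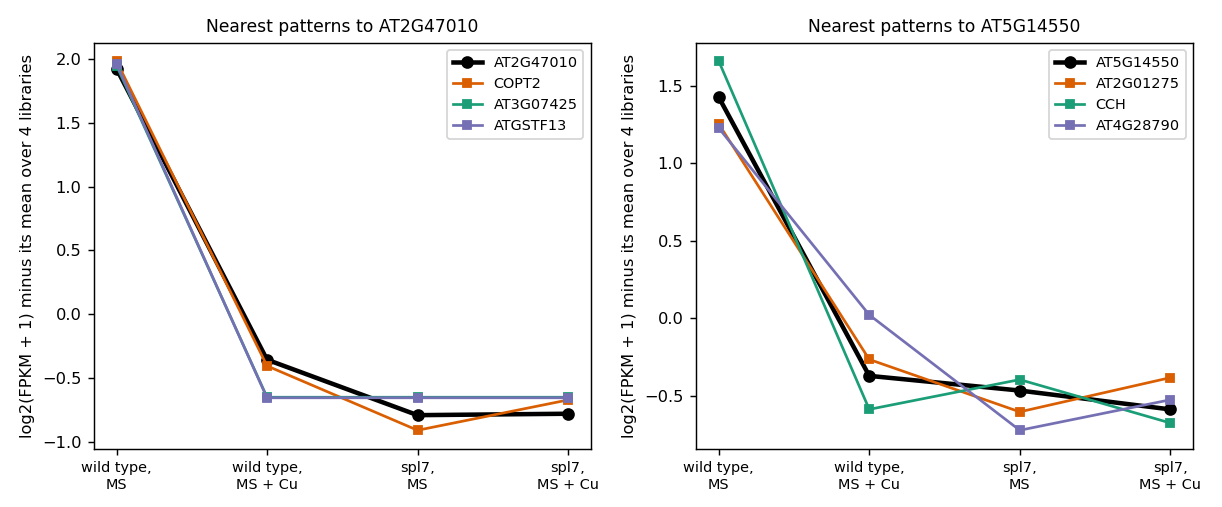
Log2 of FPKM + 1 minus its mean over the 4 libraries (vertical axis) for AT2G47010 and AT5G14550 (black) and the 3 entries nearest to each in pattern; points are single libraries and lines only guide the eye. COPT2 lies closest to AT2G47010, and CCH is among the 3 nearest to AT5G14550.

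The entries around these genes were examined at 3 places on either side, which gave 18 further genes, 5 of them listed at 0 in all libraries. On MS, 2 of 12 assessed were lower in spl7, beside 1.05% of all entries, and with copper in wild type 1 of 12 was lower, beside 0.379%. All of these lay after UNE15. They were HTA4 and AT4G13572, which reached 5 FPKM in wild type on MS alone. They could therefore be counted only as lower in these comparisons, and the shares support nothing further. AT4G13572 was at 7.79 FPKM in the wild-type library on MS and listed at 0 in the other 3, the same pattern as UNE15 at a similarly low level. The histone gene HTA4, between them, was at 5.61 FPKM without and 3.79 FPKM with added copper in wild-type seedlings, and at 0 and 3.77 FPKM in the mutant. On the other side of MIR397B, AT4G13550 stood at 152, 144, 162 and 150 FPKM in the same order, with no library apart.

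Next to AT5G14550 no neighbour was counted in any comparison. AT5G14540, 788 bp from the stronger peak, was at 198 FPKM without and 193 FPKM with added copper in wild-type seedlings, and at 212 and 204 FPKM in the mutant. NRT2.7, a nitrate transporter gene 356 bp from the weaker peak and next to MIR398C, stood at 101, 72.4, 76.5 and 79.7 FPKM in that order. Wild type on MS was its highest library too, but its log2 ratios of -0.40 (spl7 to wild type on MS) and -0.47 (copper to MS in wild type) were not counted. The second of these lay outside the middle 95% of entries, whose lower edge was -0.42. Before AT2G47010 lies ABCB4, an auxin transporter gene, at 104, 125, 76.1 and 231 FPKM. It was the only one of the 18 counted as higher in any comparison, with copper in spl7 (log2 ratio 1.59), beside 1.99% of all entries in that direction. After AT2G47020, the pollen gene VGD1 and its neighbour VGDH1 were listed at 0 in all libraries.

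**Figure D5:**
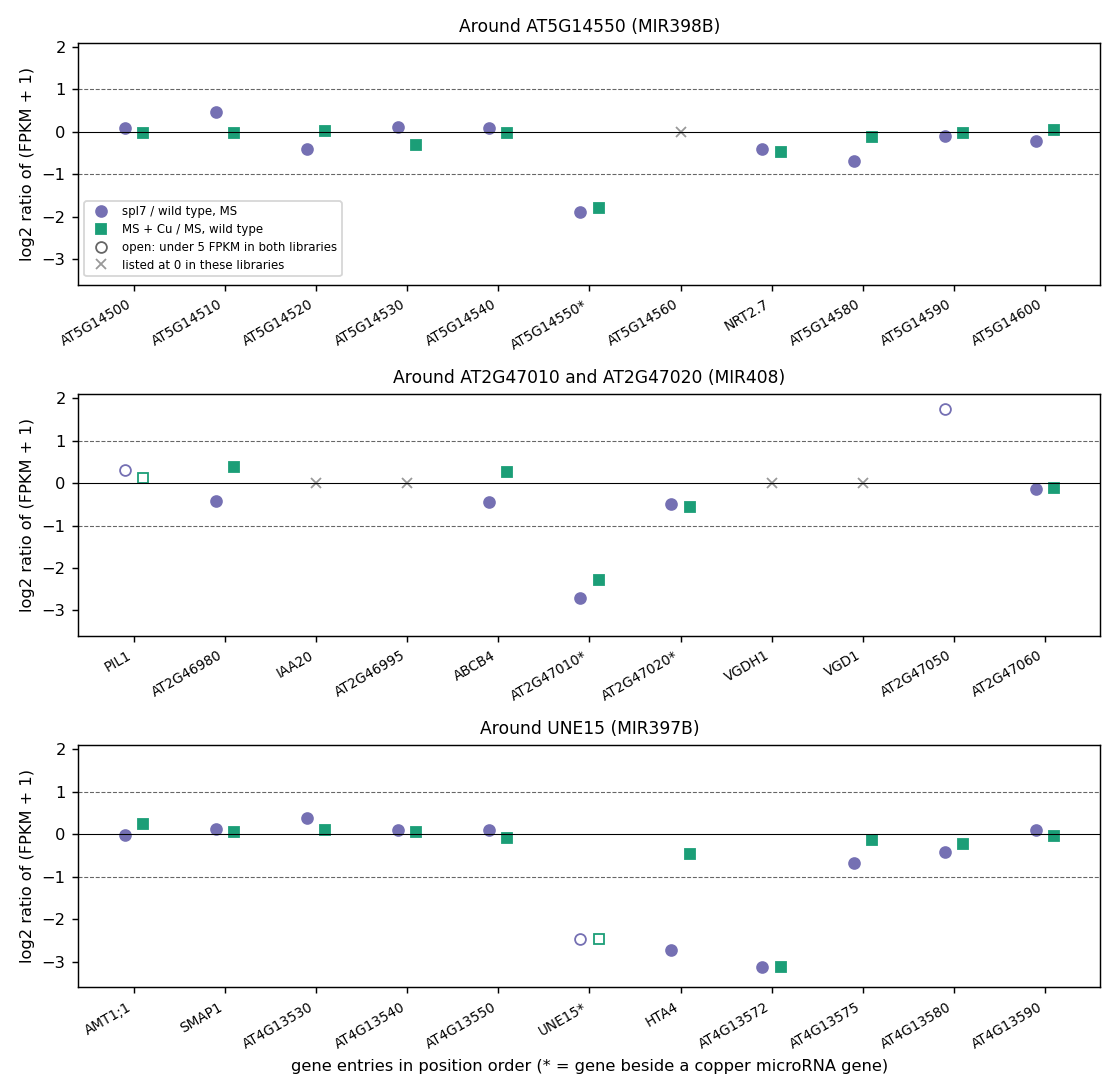
Log2 ratio of FPKM + 1 (vertical axis) for spl7 to wild type on MS (circles) and copper to MS in wild type (squares) at the gene entries around the microRNA genes, in position order; open symbols are under 5 FPKM, crosses are entries listed at 0 and dashed lines mark 2-fold. AT5G14550 and AT2G47010 lie alone below the lower line in their panels, while the circles of UNE15, HTA4 and AT4G13572, entries with low levels, lie below it in the last panel.

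The 7 copper microRNA genes MIR398A, MIR398B, MIR398C, MIR408, MIR397A, MIR397B and MIR857 have 14 entries over or next to them in RefSeq order, the 4 genes included. On MS 2 of the 11 assessed were lower in spl7, beside 1.05% of all entries. With copper in wild type 2 of 11 were lower, beside 0.379%. They were AT5G14550 and AT2G47010 each time. Over the 11 the median log2 ratio was -0.09 in each of these comparisons, beside 0.00 over all entries assessed. The 11 include AT5G14550, AT2G47010 and AT2G47020, chosen with these values known, so their median describes no wider class. The 8 assessed neighbours other than the genes described ran from -0.40 to 0.19 on MS and from -0.47 to 0.24 with copper in wild type. None of them was counted in either comparison. ENT6, a nucleoside transporter gene whose RefSeq model overlaps MIR397A, stood at 16.5, 12.5, 16.3 and 13.0 FPKM, and it has no peak within 1 kb. PAP9 and AT2G03430, the nearest measured entries to MIR398A, had log2 ratios of 0.19 and -0.09 on MS and no peak within 1 kb.

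The same reading was made over all 326 microRNA genes in RefSeq, a comparison chosen after the values were seen. Of 67 assessed entries that overlap a microRNA gene, 2 were lower in spl7 on MS (2.99%, beside 1.05% of all entries). They were AT5G14550 and HTA4 (which overlaps MIR841a). AT5G14550 was the only 1 lower with copper in wild type (1.49%, beside 0.379%). Of 364 assessed entries that lie next to a microRNA gene, 5 were lower in spl7 on MS (1.37%), a share near the 1.05% of all entries. Of 370 assessed in the comparison of copper with MS in wild type, 3 were lower with copper (0.811%, beside 0.379% of all entries). AT2G47010 and AT4G13572 were in each of these counts. Since AT5G14550 and AT2G47010 were chosen with their values known, the shares that include them support nothing further.

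Transcripts that the copper microRNAs target were set beside these genes. Of 12 targets assessed on MS, 5 were higher in spl7 and 0 lower, beside 0.541% of all entries counted as higher, and the list median was 0.80. These were CSD1 (log2 ratio 3.48, in an entry that shares its interval with another), CSD2 (3.40), CCS (2.67), the plantacyanin ARPN (1.52) and the laccase LAC2 (1.47). With copper in wild type, 4 of 11 were higher, beside 0.95%, with a list median of 0.34: CSD1, CSD2, CCS and ARPN. In the other 2 comparisons 0 of 12 were counted in either direction, beside 1.8% of entries for the genotypes with copper and 2.51% for copper in spl7. Among the laccase targets of miR397, LAC4 was at 63.0 FPKM without and 80.2 FPKM with added copper in wild-type seedlings, and at 119 and 80.1 FPKM in the mutant. LAC17 stood at 53.2, 51.9, 86.7 and 53.4 FPKM. Both were highest in spl7 on MS, at log2 ratios of 0.90 and 0.69 to wild type that were not counted. LAC7, the laccase target of miR857, stood at 51.9, 55.6, 39.4 and 54.2 FPKM and was lowest in that library.

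Because UNE15 belongs to a family of seed proteins, seed markers were set beside it. The summed level of 11 seed storage and embryo genes was 352 FPKM on MS and 729 FPKM with copper in wild-type seedlings, and 234 and 623 FPKM in the mutant. The storage genes CRA1 and CRU3 held most of these sums, and single markers differed from them: in spl7, SESA1 stayed at 14.8 and 14.7 FPKM and SESA2 was at 4.25 FPKM on MS and listed at 0 with copper. With copper, 6 of the 11 were lower in spl7 than in wild type, beside 0.814% of all entries. On MS, 2 of 10 assessed were lower in spl7, beside 1.05%. Added copper went with higher levels of 6 of 11 in wild type, beside 0.95%. In spl7 it did so for 5 of 8 assessed, beside 1.99%. Of the 11, 1 was listed at 0 in wild type on MS, 0 in copper-fed wild type, 2 in spl7 on MS and 3 in copper-fed spl7. UNE15 was listed at 0 both in spl7 on MS, where the sum was lowest, and in copper-fed wild type, where it was highest. The part of seed transcripts in its single value of 4.49 FPKM was not tested.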

How the data were processed

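The authors' FPKM values were used as deposited: per the submitters' processing notes they come from Cufflinks, after CASAVA 1.8.2 and TopHat on TAIR10, and per the series description from uniquely mapped reads. Each peak has a MACS name and a score, used as deposited by the authors; the same notes name Bowtie and TAIR10. How the caller was set, and whether it used the control, is not stated. Samples were grouped by title, 1 library per group. Low values gave no steady steps of whole reads (the commonest ratio to wild type with copper held at most 4.66% of low entries), so depth is unknown.

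Ratios were log2 of FPKM + 1, computed over all 27052 entries with Python 3.11.15 and pandas 2.3.3. The calling code was run on simulated data with large planted changes. That checks the code, not how certain a call is with 1 library per group. Names and gene order came from RefSeq TAIR10.1 (26490 entries matched); coordinates, 1-based, came from the files. Named were the 4 genes, SPL7, 3 entries on either side of each, entries over or next to 7 copper microRNA genes, 13 of their targets, the 3 nearest patterns, and markers; the rest were chosen after their values were seen. The genes and lists were chosen with earlier results of these data known. MicroRNA and promoter sequences were not used here. Alternatives were other pseudocounts, minimum levels, ratios, scalings, flanks and numbers of neighbours.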

Additional observations from a re-analysis of the deposited data

Results flagged for a closer look

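AT2G47010 differed between the genotypes in its ratio with added copper: in wild-type seedlings it went from 41.0 to 7.66 FPKM, while in the mutant it was at 5.41 FPKM on MS and 5.46 FPKM with added copper, a log2 ratio of 0.01 that is no counted change. The copper ratio of wild type minus that of spl7 was -2.29 on the log2 scale. This difference was not tested, since each group has 1 library.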

How the results depend on the processing

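With a 4-fold ratio in place of 2-fold, 1 of the genes was counted on MS (spl7 to wild type) and 1 with copper in wild type, AT2G47010 each time. With a minimum of 1 FPKM, or none, UNE15 joined AT5G14550 and AT2G47010, so 3 genes were counted in each of these comparisons. With pseudocounts of 0.1 and 5 FPKM, a minimum of 20 FPKM, a 1.5-fold ratio and rescaled libraries, 2 were counted in each, and 0 genes were counted in the other 2 comparisons under any alternative. The counts of genes past a log2 size of 1 in the difference of copper ratios (2), of genes with a peak under other flanks, midpoints and the higher-scoring peaks (3), and of neighbours counted (3, or 2 with 1 entry on either side) stayed within 1.5 times. Over single genes, 134 values kept their call, 4 gained it (UNE15) and 2 lost it (AT5G14550 at 4-fold). Counts over all entries moved further: on MS 297 were counted, 705 with a minimum of 1 FPKM or none, 95 with 20 FPKM, 1030 at 1.5-fold and 158 at 4-fold. With copper in wild type 249 were counted, and 595, 108, 689 and 124 under the same alternatives. No paired analysis was possible because each group has 1 library, and for the same reason no replicate was left out.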
